A study of Mus musculus with 12 samples.

Results

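The adipokines and adiponectin receptors are the hormones and other proteins that fat cells release into the blood, together with the receptors that read adiponectin. They were taken as every array spot annotated to Adipoq, Retn, Lep, Cfd, Rbp4, Nampt, Adipor1 or Adipor2, whatever its values. Of these 8 genes, 7 had a spot, 1 each, among 16504 genes and 22393 spots in all. Cfd, which codes for adipsin, the protease that starts the alternative complement pathway, had no spot annotated to it and is not analysed here. Adipoq, Retn, Lep, Nampt and Adipor1 had values on all 12 arrays and were tested. Rbp4 had values on 10 arrays and Adipor2 on 4, and as few values as these were seen in 17.4% and 7.82% of spots with a gene.

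The study compared RNA of mouse cells treated with pioglitazone, telmisartan or irbesartan with RNA of vehicle-treated cells on 2-colour Agilent arrays, 4 arrays for each drug. Pioglitazone, of the thiazolidinedione class, is an agonist of PPAR-gamma, a nuclear receptor of fat cells. The other drugs are angiotensin receptor blockers: telmisartan carries benzimidazole rings and a carboxylic acid on its biphenyl group, and irbesartan a spirocyclic imidazolinone and a tetrazole on its biphenyl group. The drug RNA was in channel 1 on arrays 1 and 3 of each drug and in channel 2 on arrays 2 and 4. Each side of an array held RNA pooled from 3 independent cultures, per the labels, which give no genotype, cell type, dose or time, so the doses of the drugs could not be matched and a labelled cell type could not be checked against its markers. Nothing in them tells if the 4 arrays of a drug carried the same pool, or if the drugs shared a vehicle pool. The p-values therefore measure an array-to-array spread that can be purely technical.

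Adiponectin is a collagen-like hormone that is assembled into multimers in fat cells and acts through AdipoR1 and AdipoR2 on AMP-activated kinase, PPAR-alpha and ceramide turnover. Leptin reports fat stores to the brain, and resistin is a hormone of mouse fat cells that opposes insulin action. Retinol-binding protein carries vitamin A in blood, and Nampt, also named visfatin, makes the precursor of NAD. Thiazolidinediones act on fat cells through PPAR-gamma, and adiponectin and resistin are among the hormones whose regulation by them has been studied most.

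Values are given as the log2 of drug RNA over vehicle RNA on an array, so that 0 stands for equal signal and a value below 0 for lower signal in the drug channel. The ratio was read as channel 2 over channel 1, which the deposited table does not state. With that reading 18 of 23 PPAR-gamma target genes that are not among the adipokines lay above 0 with pioglitazone and 5 lay below, and of the 11 that passed the test with at least a 1.5-fold difference, as 5.7% of all features did, 9 lay above 0 and 2 below. Of 9 fat cell markers, which share genes with that list, 1 rose and 6 fell with pioglitazone under the same reading (median -0.34). The reading thus remains inferred. With the other reading every sign given here would turn, for all genes and drugs alike. Ratios give no level of a gene, so no gene was ranked by abundance. In a ratio from pooled cultures, fewer cells of a type and less RNA per cell cannot be told apart.

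The arrays held values for 17877 to 20721 spots, and between 7.47% and 20.2% of spots were empty. Of the tested features, 49.9% passed the threshold (an adjusted p under 0.05) with pioglitazone, 41.0% with telmisartan and 31.3% with irbesartan. Of the 5 tested adipokine and receptor genes, 5 passed with pioglitazone, 4 with telmisartan and 4 with irbesartan. By direction, 2 of them rose and 3 fell with pioglitazone (23.6% and 26.3% of all features), 1 rose and 3 fell with telmisartan (19.9% and 21.1%), and 2 rose and 2 fell with irbesartan (14.4% and 16.9%). Passing the test was common across the array, so each gene is given by its size and by its value on every array. Across the genes, the fitted values of Adipoq and Adipor1 fell with all 3 drugs, a pattern of 11.6% of tested features. Nampt rose with all 3, as did 1726 of 17217 tested features. On arrays with the drug in channel 1, however, the mean of Nampt was -0.07 with pioglitazone and that of Adipor1 was 0.05 with irbesartan.

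**Figure D1:**
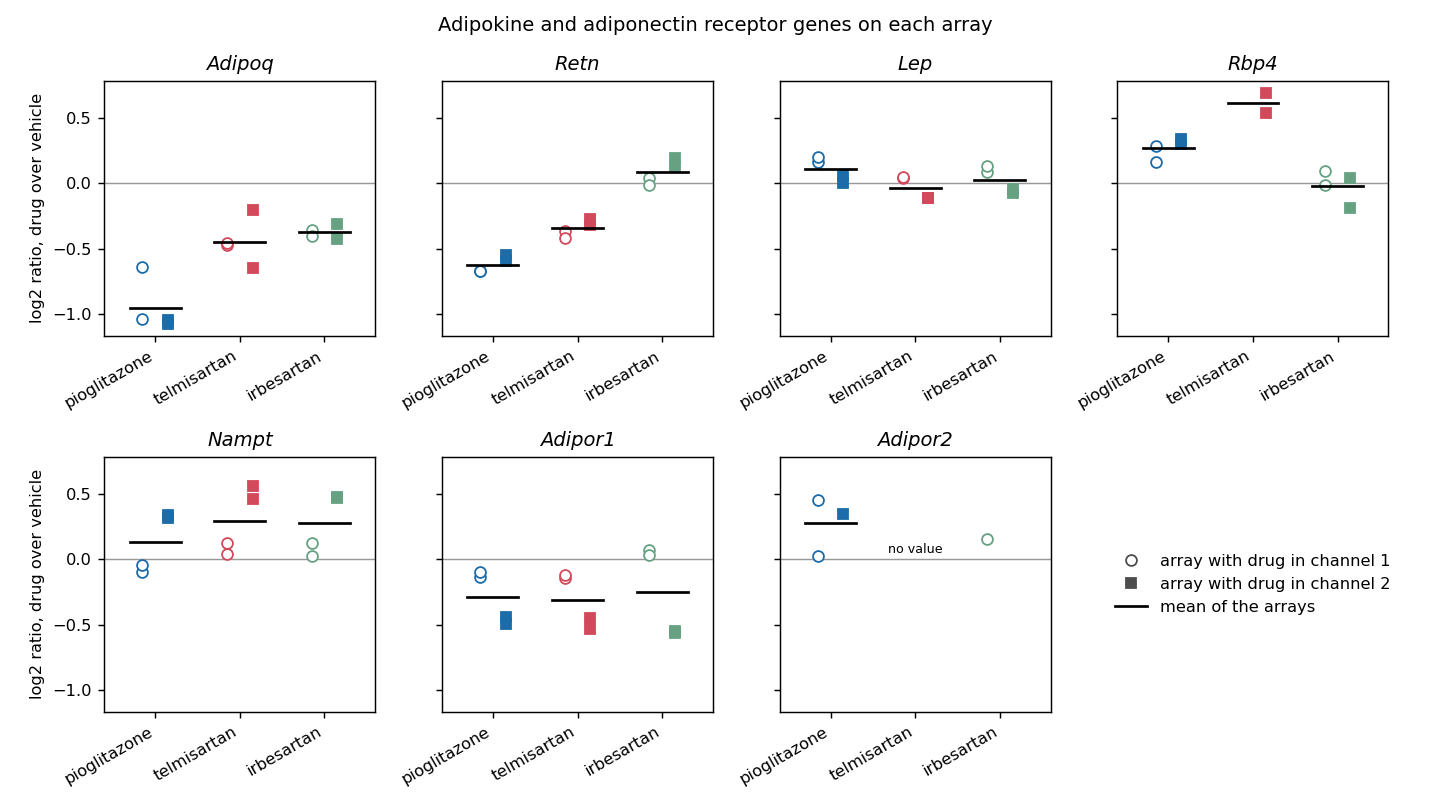
Log2 ratio of drug over vehicle (y axis) on each array for the 7 genes with a spot, by drug (x axis). Open circles are arrays with the drug in channel 1, filled squares are arrays with the drug in channel 2, and black bars are means. Adipoq lies below 0 on all 12 arrays, Retn separates by drug, and Nampt and Adipor1 separate by channel.

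Adipoq codes for adiponectin and lies on chromosome 16 at 23146536-23157968 of GRCm38.p6. The 250 bases before the RefSeq starts of Adipoq, Retn and Nampt are shown because Adipoq and Retn fell with pioglitazone and telmisartan while Nampt rose, and because PPAR-gamma and C/EBP proteins are known to act on fat cell genes. Capitals mark matches, on either strand, to 4 motifs. AGGTCA is a half-site of PPAR and related receptors. The motif TTGCNNAA is bound by C/EBP proteins. GGGCGG is the GC box of Sp1-like factors, and CCAAT the box bound by NF-Y. All 3 genes are on the plus strand, and the windows are chr16:23146286-23146535, chr8:3655520-3655769 and chr12:32820085-32820334.
Adipoq: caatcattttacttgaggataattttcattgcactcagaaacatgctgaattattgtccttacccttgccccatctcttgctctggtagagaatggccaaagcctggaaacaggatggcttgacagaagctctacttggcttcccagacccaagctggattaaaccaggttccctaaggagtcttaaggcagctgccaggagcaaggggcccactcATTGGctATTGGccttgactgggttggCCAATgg
Retn: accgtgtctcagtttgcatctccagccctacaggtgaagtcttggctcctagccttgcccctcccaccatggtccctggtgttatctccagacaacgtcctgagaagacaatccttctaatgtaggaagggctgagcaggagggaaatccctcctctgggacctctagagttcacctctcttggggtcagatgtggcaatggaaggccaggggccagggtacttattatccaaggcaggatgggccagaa
Nampt: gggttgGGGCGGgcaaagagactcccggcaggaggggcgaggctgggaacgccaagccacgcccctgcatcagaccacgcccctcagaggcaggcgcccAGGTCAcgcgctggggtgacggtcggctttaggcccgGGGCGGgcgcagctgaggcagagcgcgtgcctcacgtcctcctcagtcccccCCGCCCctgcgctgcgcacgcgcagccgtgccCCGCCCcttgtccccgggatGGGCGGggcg
The Adipoq window holds 3 CCAAT matches, which begin 34, 27 and 7 bases before the start, and no match to the other motifs. The Retn window holds no match to any of the 4 motifs. The Nampt window holds an AGGTCA match 151 bases before the start and 5 GC boxes, with a GC content of 75.6% against 48.8% for Adipoq, 54.8% for Retn and a median of 52.4% over 32851 promoters. Among those promoters AGGTCA was present in 14.0%, TTGCNNAA in 9.56%, GGGCGG in 32.7% and CCAAT in 33.8%. The Lep window, on chromosome 6, holds a C/EBP match, TTGCGCAA, 55 bases before the start and a GC box at 98, and the Adipor1 window, on chromosome 1, holds 2 GC boxes and a CCAAT match. These matches describe letters only, and binding was not measured.

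Adiponectin RNA was lower with every drug, and lowest with pioglitazone. Adipoq ratios were -0.64, -1.04, -1.04 and -1.08 on pioglitazone arrays 1 to 4. They were -0.47, -0.20, -0.46 and -0.65 on the telmisartan arrays. On the irbesartan arrays they were -0.36, -0.31, -0.40 and -0.43. All 12 arrays read below 0, pioglitazone array 1 stood apart from the other 3 of its drug, and it read slightly above telmisartan array 4. The means were -0.95 ± 0.21 with pioglitazone, -0.44 ± 0.18 with telmisartan and -0.37 ± 0.05 with irbesartan (SD, n = 4 arrays each).

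In the limma fit Adipoq fell by 0.95 ± 0.08 (SE) with pioglitazone (adjusted p = 1.38e-06), which is 1.93-fold lower than vehicle. It fell by 0.44 ± 0.08 with telmisartan (adjusted p = 0.000697), a 1.36-fold difference. With irbesartan it fell by 0.37 ± 0.08 (adjusted p = 0.0027), a 1.30-fold difference. In all, 1.13% of tested features were as low with pioglitazone, against 3.33% with telmisartan and 3.69% with irbesartan. The standard error of Adipoq was wide, with 16.3% of features as wide or wider in the pioglitazone comparison. The dye coefficient, which holds the part of a ratio that follows the channel, was -0.03 ± 0.04 for Adipoq (adjusted p = 0.632).

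The Adipoq ratio came close to those of other genes, among them fat cell genes, on some arrays. On pioglitazone array 3 Adipoq read -1.04, and Fabp4, which codes for the fatty acid carrier of fat cells, and Lpl, for lipoprotein lipase, also read -1.04. Their deposited values lay within 0.000354 and 0.000318 of the Adipoq value on the log10 scale. On irbesartan array 3 the match was closer: Adipoq, Fabp4, Lpl, the lipid droplet gene Cidec and the aldolase gene Aldoa all read -0.40, and Fabp4 and Lpl differed from Adipoq by 1.38e-05 and 5.61e-06. No spot held an exactly identical value.

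Neighbouring spots were counted to see how tight this agreement was. On irbesartan array 3, 15 spots lay within 0.0001 (log10) of Adipoq, where windows of that width nearby held 3.71 on average. Those 15 were Sod1, Pigt, Lars2, Hmgb1, Bambi, Matn2, Tsr2, Rps18, Fabp4, Lpl, Cidec and Aldoa and 3 spots without a gene. On the other 11 arrays this count ran from 0 to 13, and the nearby windows held 0.37 to 12.57 on average. For pioglitazone array 3 the count was 0, against 0.51 nearby. Within 0.0005 of Adipoq that array held 7 spots, against 2.0 in nearby windows of that width. On irbesartan array 1 Fabp4, Lpl, Cidec and Aldoa read -0.34 each, while Adipoq stood at -0.36, and on pioglitazone array 1 Fabp4 and Lpl read -0.88 each with Adipoq at -0.64.

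Fabp4 and Lpl differed from Adipoq on the pioglitazone and irbesartan arrays with the drug in channel 2. On pioglitazone arrays 2 and 4 Fabp4 read 0.39 and 0.16, and Lpl read -1.17 and -1.38, with Adipoq at -1.04 and -1.08. On irbesartan arrays 2 and 4 Fabp4 read 0.20 on both, and Lpl read -0.41 and -0.52, with Adipoq at -0.31 and -0.43. Without pioglitazone array 3 and irbesartan array 3, Adipoq read -0.90 with pioglitazone (adjusted p = 3.9e-05) and -0.35 with irbesartan (adjusted p = 0.0194), and telmisartan stayed at -0.44 (adjusted p = 0.00178). The reason for the shared ratios is not known, and their part in the Adipoq values was not tested beyond this.

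Resistin RNA fell with pioglitazone and with telmisartan, and read slightly above vehicle with irbesartan. Retn, at chr8:3655770-3659818 of GRCm38.p6, had ratios of -0.67, -0.55, -0.67 and -0.59 on the pioglitazone arrays. On the telmisartan arrays they were -0.36, -0.27, -0.41 and -0.32. On the irbesartan arrays they were 0.04, 0.12, -0.012 and 0.20. The ranges of the 3 drugs did not overlap: every pioglitazone array read below every telmisartan array, and every telmisartan array below every irbesartan array. The share of all features whose arrays separate by drug is not given here.

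Retn fell by 0.62 ± 0.02 with pioglitazone (adjusted p = 6.03e-09), 1.54-fold lower than vehicle. It fell by 0.34 ± 0.02 with telmisartan (adjusted p = 1.15e-06), a 1.27-fold difference. With irbesartan it read 0.09 ± 0.02, above 0 on 3 of 4 arrays, and passed the threshold (adjusted p = 0.0182). That rise was small: 44.2% of features lay as far from 0 with irbesartan. It did not pass with no dye coefficient in the fit (adjusted p = 0.189), in a fit of the irbesartan arrays alone (adjusted p = 0.0696), or without irbesartan array 1 (0.08, adjusted p = 0.0717) or array 4 (0.07, adjusted p = 0.118). The pattern of a fall with pioglitazone and telmisartan and a rise with irbesartan was shared by 22 of 17217 tested features (0.128%).

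Leptin RNA differed little from vehicle with any drug. Lep, at chr6:29060221-29073876, had ratios of 0.17, 0.000495, 0.20 and 0.07 on the pioglitazone arrays. On the telmisartan arrays they were 0.04, -0.11, 0.05 and -0.12. On the irbesartan arrays they were 0.09, -0.04, 0.13 and -0.07. The groups overlapped, and with each drug arrays 1 and 3 read above arrays 2 and 4. Lep rose by 0.11 ± 0.02 with pioglitazone (adjusted p = 0.00191), a 1.08-fold difference. It read -0.04 with telmisartan (adjusted p = 0.24, 95% interval -0.08 to 0.01) and 0.03 with irbesartan (adjusted p = 0.461, interval -0.02 to 0.08). With no dye coefficient in the fit, the pioglitazone value of Lep had an adjusted p of 0.109.

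**Figure D2:**
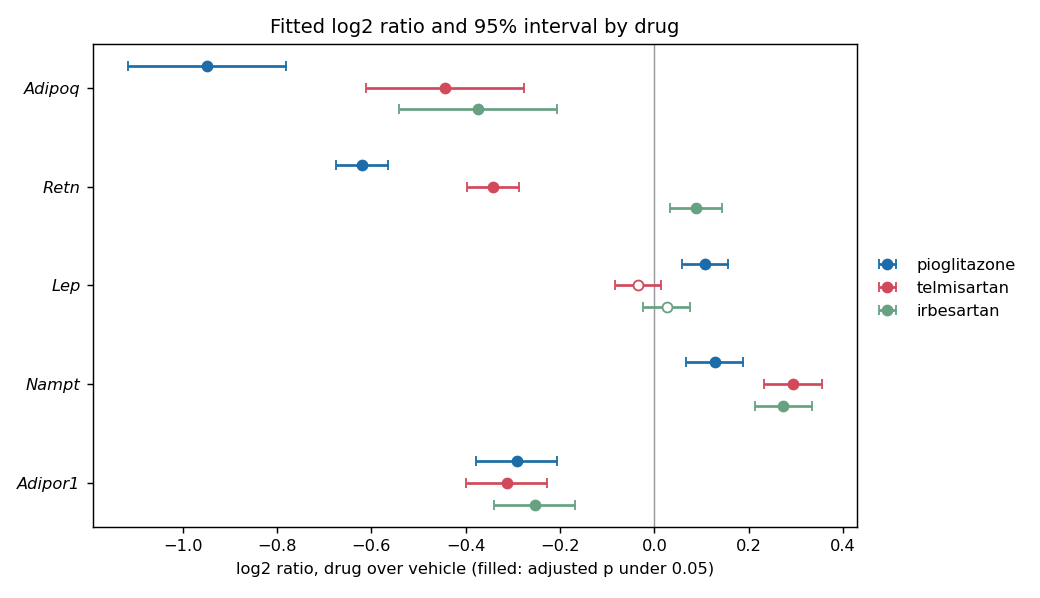
Fitted log2 ratio of drug over vehicle (x axis) with its 95% interval for the 5 tested genes, by drug. Filled points passed the threshold. Pioglitazone is lowest for Adipoq (-0.95) and Retn (-0.62), and the intervals of the 3 drugs overlap for Adipor1 (-0.29, -0.31 and -0.25).

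Retinol-binding protein RNA was higher with pioglitazone, and with telmisartan on the 2 arrays that measured it. Rbp4, on chromosome 19 at 38116620-38125321, had ratios of 0.16, 0.34, 0.29 and 0.30 on the pioglitazone arrays. Telmisartan arrays 2 and 4 gave 0.69 and 0.53, and arrays 1 and 3 were empty. On the irbesartan arrays the ratios were 0.10, -0.19, -0.011 and 0.04. All 4 pioglitazone arrays read above all 4 irbesartan arrays, and both measured telmisartan arrays read above all others. How common such an order is among all features is not given.

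Rbp4 did not reach the filter of 3 arrays per drug and was fitted among 18106 features with at least 2 arrays per drug. In that limma fit it rose by 0.27 ± 0.05 with pioglitazone (adjusted p = 0.00231) and by 0.62 ± 0.08 with telmisartan (adjusted p = 0.00034). With irbesartan it read -0.02 ± 0.05 (adjusted p = 0.878). The telmisartan value rests on 2 arrays that both had the drug in channel 2, and its dye correction came from the other drugs, whose channel 2 arrays minus channel 1 arrays differed by 0.09 with pioglitazone and -0.12 with irbesartan. Array weights estimated by limma are lower for arrays farther from the fit, and were lowest for telmisartan arrays 2 and 4 (0.228 and 0.648). In fits of each drug alone, Rbp4 had an adjusted p of 0.00201 with pioglitazone and 0.825 with irbesartan.

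Nampt, the enzyme that makes nicotinamide mononucleotide, rose modestly with every drug. The gene lies on chromosome 12 at 32820335-32853369. Its ratios were -0.09, 0.34, -0.05 and 0.31 on the pioglitazone arrays. On the telmisartan arrays they were 0.12, 0.56, 0.04 and 0.46. On the irbesartan arrays they were 0.03, 0.47, 0.12 and 0.47. With each drug the arrays with the drug in channel 2 read above those with the drug in channel 1, with no overlap.

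Nampt rose by 0.13 ± 0.03 with pioglitazone (adjusted p = 0.00263), by 0.29 ± 0.03 with telmisartan (adjusted p = 8.46e-06) and by 0.27 ± 0.03 with irbesartan (adjusted p = 1.85e-05). The telmisartan rise was 1.23-fold, and 6.49% of features were as high. Within channel 1 arrays the mean was -0.07 with pioglitazone, 0.08 with telmisartan and 0.08 with irbesartan, and within channel 2 arrays it was 0.33, 0.51 and 0.47. The dye coefficient of Nampt was 0.20 ± 0.02 (adjusted p = 1.43e-05), and 5.84% of features had one as far from 0, while 44.6% of features passed the threshold for it. With no dye coefficient Nampt passed with none of the 3 drugs (adjusted p = 0.393, 0.0627 and 0.107).

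The RNA of the adiponectin receptor AdipoR1 fell with each drug. Adipor1, at chr1:134415378-134433351, had ratios of -0.13, -0.44, -0.10 and -0.49 on the pioglitazone arrays. On the telmisartan arrays they were -0.14, -0.45, -0.12 and -0.54. On the irbesartan arrays they were 0.07, -0.56, 0.03 and -0.55. With each drug the channel 2 arrays read lower, and with irbesartan the channel 1 arrays lay above 0.

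Adipor1 fell by 0.29 ± 0.04 with pioglitazone (adjusted p = 8.42e-05), by 0.31 ± 0.04 with telmisartan (adjusted p = 7.15e-05) and by 0.25 ± 0.04 with irbesartan (adjusted p = 0.000416). These falls amount to 1.22-fold, 1.24-fold and 1.19-fold. Within channel 1 arrays the mean was -0.12 with pioglitazone, -0.13 with telmisartan and 0.05 with irbesartan, and within channel 2 arrays it was -0.47, -0.49 and -0.56. The sign therefore held in both channel orders for pioglitazone and telmisartan and turned for irbesartan, where 47.6% of all tested features had opposite signs in the channel orders, against 32.2% with pioglitazone and 40.0% with telmisartan. The dye coefficient was -0.22 ± 0.02 (adjusted p = 5.69e-05), and 4.54% of features had one as far from 0. With no dye coefficient Adipor1 had adjusted p-values of 0.0744, 0.071 and 0.182 with the 3 drugs.

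AdipoR2, the receptor tied to PPAR-alpha in liver, was measured on few arrays. Adipor2, on chromosome 6 at 119353150-119417699, read 0.45, 0.35 and 0.02 on pioglitazone arrays 1, 2 and 3, and 0.15 on irbesartan array 3. All 4 values lay above 0. It had no value on a telmisartan array, so the fits over all drugs did not keep it, and no test is given for it.

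**Figure D3:**
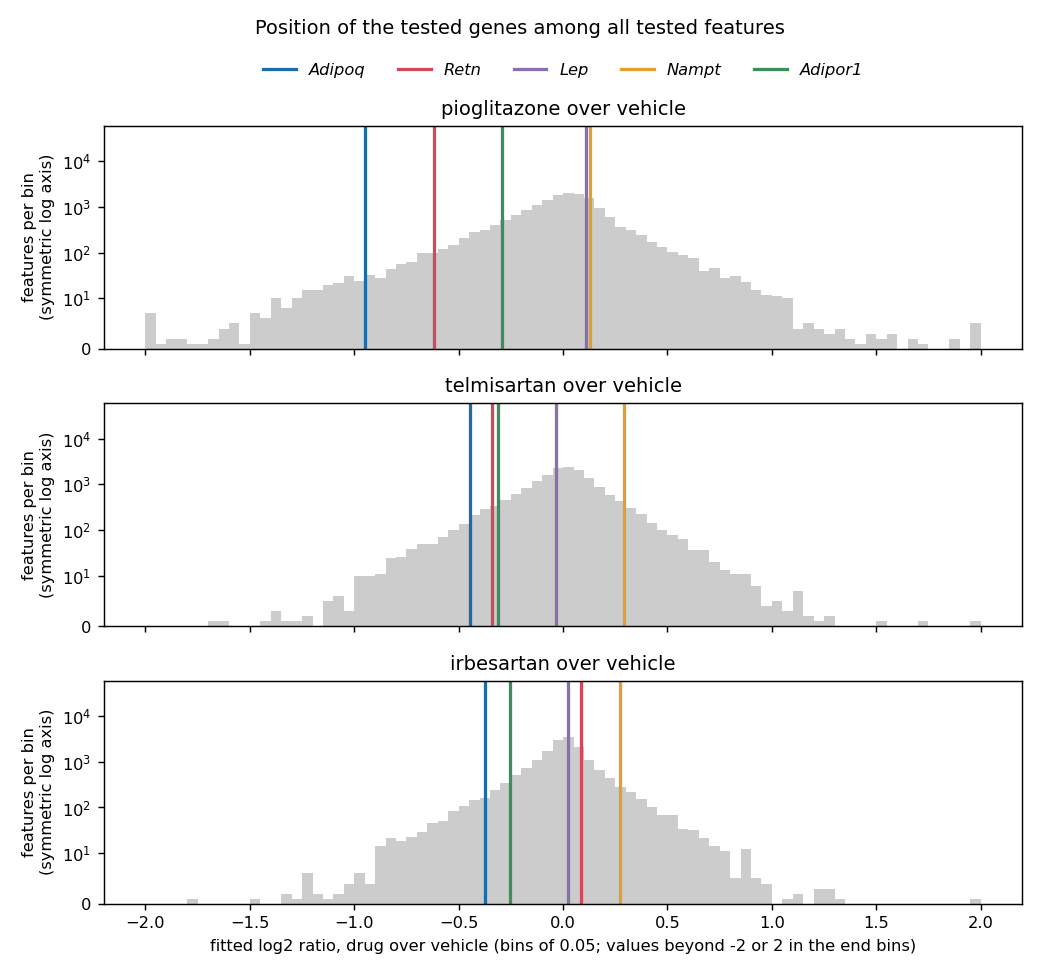
Number of tested features (y axis, symmetric log scale) by fitted log2 ratio of drug over vehicle (x axis, bins of 0.05) for each drug, with lines at the 5 tested genes. Adipoq stands in the lower tail with pioglitazone, where 1.13% of features are as low, and Lep lies near the centre with each drug.

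The drugs were then compared with each other in 3 pairs, in the same limma fit, with p-values adjusted over all 17217 features within each pair. Of all features 14.7% differed between pioglitazone and telmisartan, 18.1% between pioglitazone and irbesartan and 9.38% between telmisartan and irbesartan, and of the 5 tested genes 4, 3 and 1 did. Adipoq was lower with pioglitazone than with telmisartan by 0.50 on the log2 scale (difference -0.50 ± 0.11, adjusted p = 0.00978). It was lower with pioglitazone than with irbesartan as well (-0.57 ± 0.11, adjusted p = 0.00418). Telmisartan minus irbesartan was -0.07 for Adipoq (adjusted p = 0.752), with a 95% interval of -0.31 to 0.17, so that differences of up to 0.31 between the blockers lie within the interval. Without the arrays that shared ratios the first 2 differences were -0.46 (adjusted p = 0.0381) and -0.55 (adjusted p = 0.0186).

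Retn was the tested gene that separated the angiotensin receptor blockers. Telmisartan minus irbesartan was -0.43 ± 0.03 for Retn (adjusted p = 0.000152, 95% interval -0.51 to -0.35), and 0.831% of features were as low. Pioglitazone minus irbesartan was -0.71 ± 0.03 (adjusted p = 1.19e-06), with 0.575% of features as low. Pioglitazone minus telmisartan was -0.28 ± 0.03 (adjusted p = 0.000512). The blockers differed in Retn, with the doses of both not given, and any part of their structures in this was not tested.

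For Lep and Nampt the differences between pioglitazone and the blockers were small. Pioglitazone minus telmisartan was 0.14 ± 0.03 for Lep (adjusted p = 0.0118). That difference did not pass with no dye coefficient in the fit (adjusted p = 0.344) or with averaged dye-swap pairs (adjusted p = 0.0522). Pioglitazone minus irbesartan was 0.08 for Lep (adjusted p = 0.103, interval 0.01 to 0.15), and telmisartan minus irbesartan was -0.06 (adjusted p = 0.277, interval -0.13 to 0.01). For Nampt the pioglitazone values were lower than those of telmisartan (-0.17 ± 0.04, adjusted p = 0.0163) and of irbesartan (-0.15 ± 0.04, adjusted p = 0.0256). The Nampt difference from irbesartan did not pass without pioglitazone array 1, 2 or 4 or irbesartan array 2, 3 or 4 (adjusted p up to 0.0777), and that from telmisartan did not pass without pioglitazone array 4 (adjusted p = 0.051). With no dye coefficient these Nampt differences had adjusted p-values of 0.693 from telmisartan and 0.704 from irbesartan, and with averaged dye-swap pairs 0.0664 and 0.0846. With the array number as a replicate block the difference from irbesartan had an adjusted p of 0.0511. Telmisartan minus irbesartan was 0.02 for Nampt (adjusted p = 0.807, interval -0.07 to 0.11).

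No pair of drugs passed the test for Adipor1. The differences were 0.02 for pioglitazone minus telmisartan (adjusted p = 0.855, interval -0.10 to 0.14), -0.04 for pioglitazone minus irbesartan (adjusted p = 0.709, interval -0.16 to 0.08) and -0.06 for telmisartan minus irbesartan (adjusted p = 0.572, interval -0.18 to 0.06). Rbp4, from its own fit, differed for each pair: -0.35 ± 0.10 for pioglitazone minus telmisartan (adjusted p = 0.0487), 0.29 ± 0.07 for pioglitazone minus irbesartan (adjusted p = 0.0296) and 0.64 ± 0.10 for telmisartan minus irbesartan (adjusted p = 0.0068). The telmisartan side of Rbp4 again rests on arrays 2 and 4.

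**Figure D4:**
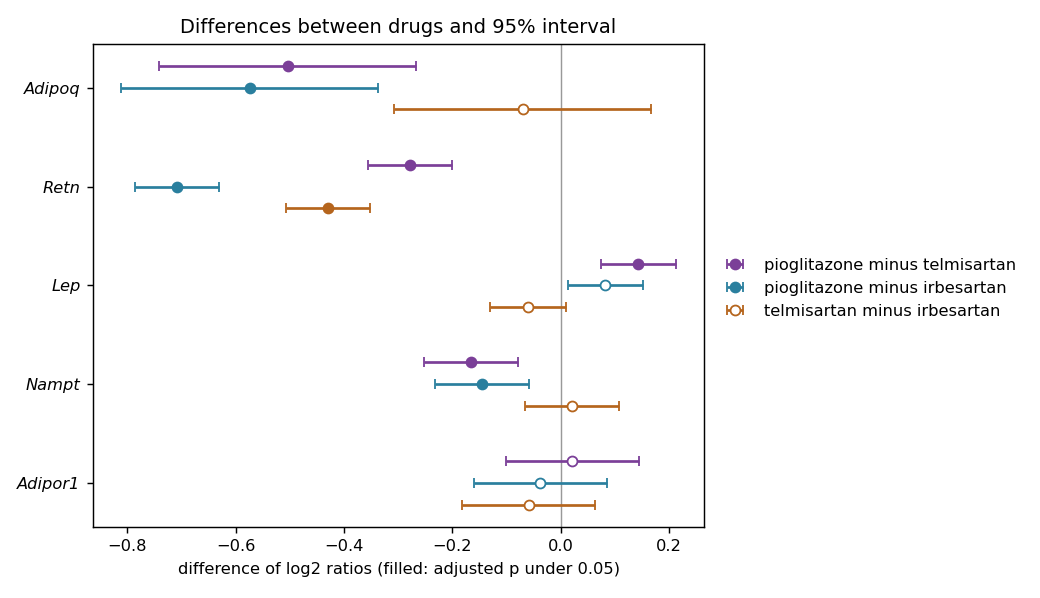
Difference between drugs in the fitted log2 ratio (x axis) with its 95% interval for the 5 tested genes. Filled points passed the threshold. Adipoq and Retn are lower with pioglitazone than with either blocker, and telmisartan minus irbesartan passes for Retn (-0.43) among these genes.

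The genes whose ratios ran most like each adipokine over the 12 arrays were listed by Pearson correlation among 13910 features, as a description without a test, since the points share drug and channel order. For Adipoq they were the ribosomal protein gene Rps18 (r = 0.969), Hspbp1 (0.965) and the cathelicidin gene Camp (0.961). Rps18 is also among the spots within 0.0001 of Adipoq on irbesartan array 3. Camp changed more than Adipoq, with fitted values of -3.16 with pioglitazone, -1.69 with telmisartan and -1.45 with irbesartan. For Retn they were Zfp423 (0.982), a zinc finger factor known from fat cell precursors, the branched-chain aminotransferase gene Bcat2 (0.969) and the sulfurtransferase gene Tst (0.967).

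Bcat2 read -0.40 with pioglitazone, -0.25 with telmisartan and 0.11 with irbesartan, the same order of drugs as Retn. For Lep the closest were Sdhaf1 (0.976), Brd1 (0.969) and the ceruloplasmin gene Cp (0.969), and for Adipor1 they were G3bp2 (0.982), Chd8 (0.981) and Scamp3 (0.977). For Nampt they were Ankrd50 (0.983), Armcx2 (0.981) and Dazap2 (0.979). These last 3 were lower than vehicle with each drug while Nampt was higher, so their likeness to Nampt lies in the differences between arrays and not in the mean. Among the adipokines, Retn and Adipoq ran together (r = 0.729, n = 12 arrays), as did Adipor1 and Lep (0.769), while Nampt ran against Lep (-0.908) and Adipor1 (-0.875). These ratios still hold the part that follows the channel. The dye coefficients were 0.20 for Nampt, -0.22 for Adipor1 and -0.08 for Lep, and their part in these correlations was not tested.

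Genes of the pathways around the adipokines were read from lists chosen for their known roles. Among 18 tested genes of adiponectin action and assembly, 7 rose and 3 fell with pioglitazone, 6 rose and 5 fell with telmisartan, and 4 rose and 4 fell with irbesartan. Over all tested features 23.6% rose and 26.3% fell with pioglitazone, 19.9% and 21.1% with telmisartan, and 14.4% and 16.9% with irbesartan, and the counts of each list stand against these shares. The list medians were 0.011, 0.015 and 0.0048 with the 3 drugs, against 0.0047, 0.0051 and 0.0030 over all features. Ero1a, an oxidase that helps release adiponectin multimers from the endoplasmic reticulum, rose by 0.73 with pioglitazone (adjusted p = 3.57e-08), 1.12 with telmisartan (5.66e-09) and 1.05 with irbesartan (1.2e-08). Gstk1, also named DsbA-L, which promotes adiponectin assembly, fell by 0.81 (adjusted p = 3.88e-09), 0.52 (2.38e-07) and 0.52 (3.08e-07). Downstream, the fat oxidation gene Cpt1a rose by 0.55 with pioglitazone (adjusted p = 8.51e-08), and Acacb, which makes malonyl-CoA at mitochondria, rose by 0.86 with pioglitazone, 0.17 with telmisartan and 0.42 with irbesartan. In this list Appl1 with pioglitazone, Acaca and Appl1 with telmisartan, and Appl1 and Camkk2 with irbesartan had another spot with a different call. Over all lists read here, 5 genes with pioglitazone, 7 with telmisartan and 6 with irbesartan did.

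Of 8 tested genes of leptin receptor signalling, 1 rose and 5 fell with pioglitazone (median -0.22), 1 rose and 5 fell with telmisartan (median -0.13), and 1 rose and 3 fell with irbesartan (median -0.13). Over all features 26.3%, 21.1% and 16.9% fell with the same drugs. Stat3, the transcription factor of the pathway, fell by 0.34, 0.32 and 0.37 with the 3 drugs in that order, and Socs3, its feedback inhibitor, fell by 0.34, 0.26 and 0.32. The gene that rose was Ptpn2, a phosphatase that dampens the pathway (0.41, 0.38 and 0.17). Ptpn11 was counted as falling from its first spot (-0.24 with pioglitazone, -0.17 with telmisartan and -0.15 with irbesartan), and another of its 3 spots passed in the other direction (0.28, 0.47 and 0.23).

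In a list of complement genes around Cfd, 3 of 9 tested genes rose and 2 fell with pioglitazone, 1 rose and 1 fell with telmisartan, and 1 rose and 3 fell with irbesartan (medians -0.03, 0.05 and -0.04). Properdin, Cfp, which steadies the convertase, rose by 0.81 with pioglitazone (adjusted p = 2.78e-06), 0.28 with telmisartan (0.00821) and 0.57 with irbesartan (8.59e-05). Cd55, which breaks the convertase down, fell by 0.61 with pioglitazone (adjusted p = 4.2e-08) and 0.33 with irbesartan (1.19e-05). C1s1, which the list holds although its protease belongs to the classical pathway, fell by 0.96, 0.48 and 0.49 with pioglitazone, telmisartan and irbesartan. Without C1s1, taken out after its values were seen, of 8 genes 3 rose and 1 fell with pioglitazone, 1 rose and 0 fell with telmisartan, and 1 rose and 2 fell with irbesartan (medians 0.02, 0.06 and -0.02).

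Among 19 tested genes of retinoid handling, around Rbp4, 6 rose and 6 fell with pioglitazone, 6 rose and 2 fell with telmisartan, and 7 rose and 2 fell with irbesartan (medians 0.04, 0.04 and 0.02). Aldehyde dehydrogenase genes were among those that rose: Aldh1a7 rose by 1.53, 1.00 and 1.14, and Aldh1a1, which makes retinoic acid, rose by 0.80, 0.39 and 0.40. Adh1 (-0.58, -0.34 and -0.28) and Rdh10 (-0.44, -0.45 and -0.29) fell with each drug, and Rxrb fell by 0.55 with pioglitazone. Among 17 genes of NAD synthesis and use, around Nampt, 5 rose and 5 fell with pioglitazone, 4 rose and 3 fell with telmisartan, and 5 rose and 2 fell with irbesartan (medians -0.03, -0.0039 and 0.0046). Nmnat1, which turns the product of Nampt into NAD, rose by 0.43, 0.42 and 0.25 with the 3 drugs, and Qprt of the route from tryptophan rose by 0.31, 0.20 and 0.23. Naprt fell with each drug (-0.20, -0.12 and -0.18). Sirt2 fell by 0.41 with pioglitazone and 0.20 with telmisartan, and Nmnat3 by 0.38 with pioglitazone.

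Relatives of the adipokines were read in the same way. Of 2 tested genes of the resistin family and its receptor, Cap1, a proposed resistin receptor in human cells, fell by 0.32 with pioglitazone, and Retnla rose by 0.21 with telmisartan. Of 7 C1q/TNF-related genes, the paralogs of adiponectin, 0 rose and 3 fell with pioglitazone, 1 rose and 4 fell with telmisartan, and 1 rose and 1 fell with irbesartan (medians -0.17, -0.30 and -0.07). C1qtnf5 fell by 0.67, 0.44 and 0.41 with the 3 drugs, and C1qtnf12 rose by 0.35 with telmisartan and 0.54 with irbesartan. In the PAQR family, to which the adiponectin receptors belong, Mmd rose by 0.53, 0.37 and 0.45, and of 6 tested genes 3 rose and 2 fell with pioglitazone, 1 rose and 0 fell with telmisartan, and 2 rose and 0 fell with irbesartan (medians 0.06, 0.06 and 0.09).

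Among 21 other genes of factors secreted by fat cells, 7 rose and 9 fell with pioglitazone, 5 rose and 8 fell with telmisartan, and 5 rose and 9 fell with irbesartan (medians -0.05, -0.05 and -0.02). Haptoglobin, Hp, fell, with values of -1.20 (pioglitazone), -1.26 (telmisartan) and -1.08 (irbesartan), and so did orosomucoid, Orm1, with -1.37, -0.96 and -0.48. Angptl4, a lipase inhibitor and PPAR target, rose by 0.98 with pioglitazone, 0.36 with telmisartan and 0.66 with irbesartan.

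**Figure D5:**
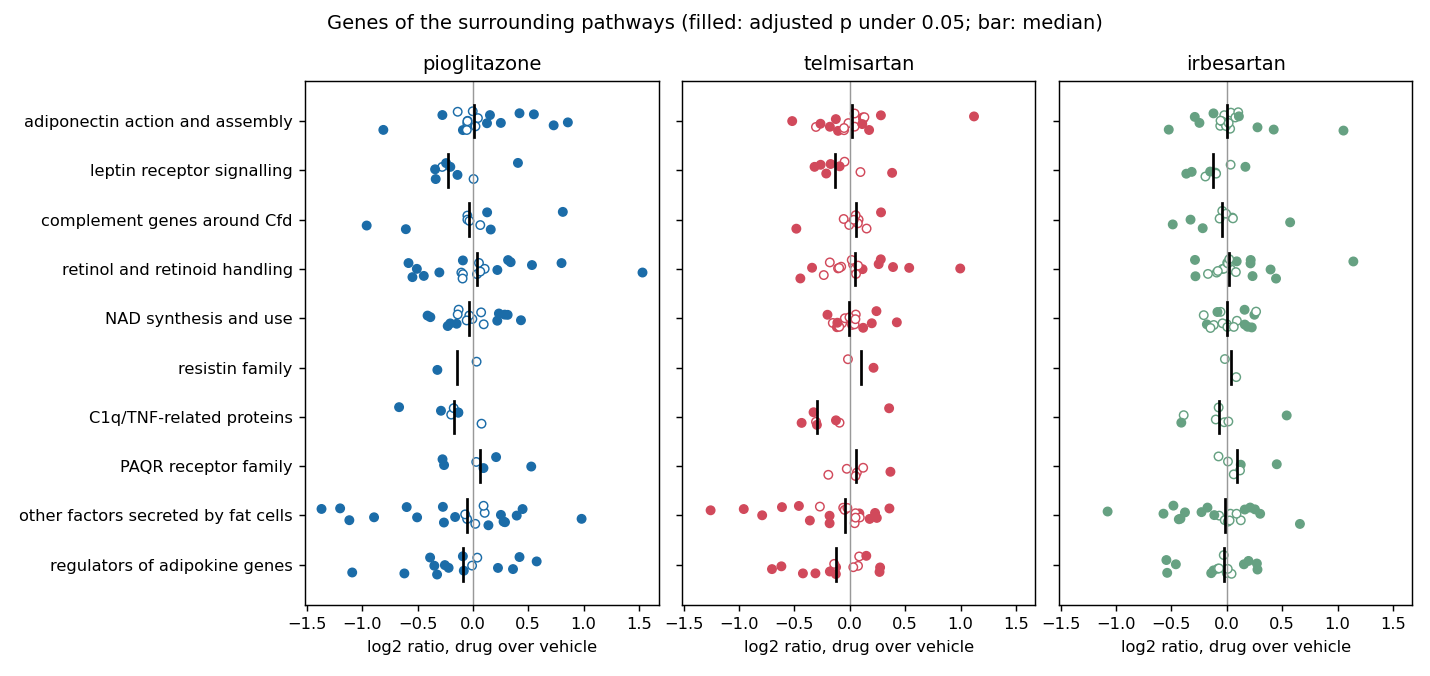
Fitted log2 ratio of drug over vehicle (x axis) for the tested genes of 10 lists around the adipokines (y axis), by drug. Filled points passed the threshold and bars are medians. The leptin receptor signalling list has medians of -0.22, -0.13 and -0.13, and its genes below 0 outnumber those above 0 with each drug.

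Among 15 tested regulators of adipokine genes, 4 rose and 9 fell with pioglitazone, 3 rose and 7 fell with telmisartan, and 4 rose and 5 fell with irbesartan (medians -0.09, -0.13 and -0.03). Pparg itself fell by 1.09 with pioglitazone (adjusted p = 1.39e-10), 0.62 with telmisartan (2.35e-08) and 0.54 with irbesartan (8.8e-08). Srebf1, a regulator of lipid synthesis, fell by 0.62, 0.70 and 0.55 with the same drugs. Cebpd fell by 0.35 with pioglitazone, 0.42 with telmisartan and 0.46 with irbesartan. Others rose: Id3 by 0.58 with pioglitazone, and Ppargc1a by 0.42 with pioglitazone and 0.28 with irbesartan. With telmisartan Ppargc1a read -0.13. Creb1 was counted as not passing from its first spot (0.04, 0.03 and 0.04), and its other spot fell (-0.36, -0.41 and -0.32). Sp1 was counted as falling (-0.25, -0.18 and -0.14), and its other spot did not pass (-0.05, 0.12 and -0.14). Adipoq, Pparg and Srebf1 thus lay below 0 with each drug, and no relation between them was tested.

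Cell type markers moved beside the adipokines. All 8 tested markers of preadipocytes and fibroblasts fell with each drug, with medians of -1.38 with pioglitazone, -0.81 with telmisartan and -0.78 with irbesartan, and with the decorin gene Dcn at -1.82 and the fibronectin gene Fn1 at -1.67 with pioglitazone. Of 9 fat cell markers, 1 rose and 6 fell with pioglitazone (median -0.34), 1 rose and 4 fell with telmisartan (median -0.17), and 3 rose and 3 fell with irbesartan (median 0.01). Of 4 macrophage markers 0 passed with pioglitazone, 1 rose and 1 fell with telmisartan and 1 fell with irbesartan, and of 2 endothelial markers 0 passed with any drug. Ratios give no summed level of a marker list and cannot show which markers are absent, and the part of these markers in the adipokine values was not tested.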

How the data were processed

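Cultured mouse cells were profiled on 12 two-channel Agilent arrays, 4 for each drug, grouped by the drug named in the labels. The values the authors deposited were read as log10 ratios, already normalised per array. This unit was inferred from the values, which end at -2 and 2 with array medians within 0.00264 of 0, and no source used here states it, the background correction or the numerator channel. The arrays of opposite channel order anticorrelated (mean r -0.4815). Multiplying by 3.3219 gave log2 ratios, which were set as drug over vehicle. Signal over background is unknown, and the number of arrays limits the precision.

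Spots were named from the platform annotation, with 18218 spots of 1 gene, 16 of several and 4159 of none, and 18175 were matched to RefSeq (GRCm38.p6). A group of 471 control-like spots without a gene was left out after the values were seen, and 48 sets of 10 or 11 repeat spots were averaged. Features with values on at least 3 arrays of each drug were tested, 17217 of 21486. One limma 3.58.1 fit (R 4.3.3) of the 12 arrays held a coefficient per drug and a shared dye coefficient. P-values are two-sided and Benjamini-Hochberg adjusted over all tested features, with a threshold of 0.05. The fit was tested on simulated data. Named genes are the members, their 3 closest features and up to 4 called genes of each list per drug. For a list gene with several spots, the first of the spots with most arrays was taken. Asip was left out, since the RefSeq table holds that name only as an alias of another gene. Members and lists were chosen with earlier results of these data known. The array numbers were checked for pairing: after drug and dye, deviations of same-numbered arrays correlated between -0.35233 and 0.08822, so the numbers were not taken as pairs.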

Additional observations from a re-analysis of the deposited data

Results flagged for a closer look

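The Adipoq ratio on pioglitazone array 1 stood far from the other 3 arrays of that drug. It was -0.6387, against -1.0371 to -1.0764 on the others, a gap of 0.91 of the group's range past the 95% critical value of Dixon's test for 4 samples. Of 17 gene and drug groups of 4 arrays examined, this was the only 1 past that value, and chance alone passes about 1 in 20. Without that array Adipoq read -1.05 with pioglitazone (adjusted p = 1.05e-06), and the differences were -0.61 from telmisartan (adjusted p = 0.00228) and -0.68 from irbesartan (adjusted p = 0.00102). These were the largest differences in limma fits with each array left out in turn. The smallest were -0.40 from telmisartan and -0.53 from irbesartan, and adjusted p-values ran up to 0.0363 and 0.0177. Telmisartan array 2, with Adipoq at -0.20, had the lowest array weight (0.228).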

How the results depend on the processing

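Over the alternatives other than leaving out an array or fitting 1 channel order, 301 single-gene values kept their side of the threshold. Another 16 lost the threshold. Leaving out shared ratios, described below, repeated the main fit, so its values were bound to be kept. Changes of the filter and spots left unaveraged kept the ratios of the 5 genes and altered only the other features of the fit. With arrays left out in turn, 351 kept their side and 9 lost the threshold. A value that did not pass could change sign and still count as kept. Adipor1 for pioglitazone minus telmisartan, for example, ran from -0.0049 to 0.0518 with arrays left out in turn. Each drug's mean ratio is fixed by the balanced design, so most alternatives change the spread and not the value. Without the dye coefficient, 2 of the 5 tested genes passed with pioglitazone, 2 with telmisartan, 1 with irbesartan and 2 for pioglitazone minus telmisartan, and the counts over all features were 3439 for irbesartan, 838 for pioglitazone minus telmisartan, 1044 for pioglitazone minus irbesartan and 266 for telmisartan minus irbesartan, against 5393, 2526, 3113 and 1615. A dye coefficient per drug gave 2564 features for telmisartan minus irbesartan. Averaged dye-swap pairs left 2 of the tested genes for pioglitazone minus telmisartan. Arrays scaled to equal spread gave 1622 features for pioglitazone minus telmisartan and 1658 for pioglitazone minus irbesartan. Features with at least 2 arrays per drug added Rbp4, and 2 genes then passed for telmisartan minus irbesartan. A search for ratios shared with many spots within 0.0015 (log10) marked no array of the 7 genes, so leaving such arrays out changed nothing. The cause of these shifts was not tested.

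With the array number as a replicate block, Nampt in pioglitazone minus irbesartan had an adjusted p of 0.0511, and no other call of the 5 genes changed. Same-numbered arrays correlated between 0.2369 and 0.524 after drug alone, since a number shares its channel order. With arrays left out in turn, telmisartan minus irbesartan gave 1014 to 2090 features, with 1025 without telmisartan array 3, 1020 without irbesartan array 1 and 1014 without irbesartan array 4.

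Fits of 1 channel order were added after the values were seen. With the drug in channel 1, Nampt turned to -0.0700 with pioglitazone (adjusted p = 0.241) and Adipor1 to 0.0492 with irbesartan (adjusted p = 0.325); 1 gene passed with irbesartan, 1 for pioglitazone minus telmisartan and 1 for pioglitazone minus irbesartan, and 1436 features for pioglitazone minus telmisartan. With the drug in channel 2, 0, 1 and 0 of the 5 genes passed for pioglitazone minus telmisartan, pioglitazone minus irbesartan and telmisartan minus irbesartan, with 670, 883 and 16 features. These fits have 2 arrays a drug, and 17 further single-gene values kept their direction and lost the threshold, among them Retn for telmisartan minus irbesartan with the drug in channel 2 (-0.46, adjusted p = 0.0634) and Adipoq for pioglitazone minus telmisartan with the drug in either channel (adjusted p = 0.123 and 0.087).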
